A study of Homo sapiens with 9 samples.

Results

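Transcript levels of 7 matrix metalloproteinase genes (MMP1, MMP2, MMP7, MMP9, MMP10, MMP13 and MMP14) and 3 genes of tissue inhibitors of metalloproteinases (TIMP1, TIMP2 and TIMP3) were followed in UPCI-SCC-040, a line of tongue origin derived from oral squamous cell carcinoma, during exposure to transforming growth factor beta 1 (TGF-β1). The members were taken by symbol from GENCODE release 29, and all 10 were found among the 58233 genes of the count files. The filter on low counts left 15440 genes to test, among them 9 of the 10, with MMP7 left out. RNA-seq libraries of total RNA came from 3 cultures given 5 ng/ml TGF-β1 for 48 h, 3 given that dose for 72 h, and 3 controls without TGF-β1, which the titles label 0 h. Each group held 1 library of passage 12, 1 of passage 13 and 1 of passage 8, which are replicates 1, 2 and 3. TGF-β1 was added in medium without serum and antibiotics, the growth medium held both, and the labels do not say which medium the controls had. In every comparison with control, the cytokine, the loss of serum and the hours in culture therefore cannot be told apart, and both comparisons share the same control libraries. All libraries derive from 1 line, the labels separate the replicates by passage alone, and p-values measure the spread between these samples only.

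Metalloproteinases of this family are zinc endopeptidases that are made as inactive proenzymes and that cut collagens, laminins, growth factor precursors and each other. TIMPs are small secreted proteins that close the active site of these enzymes, and TIMP3 also binds to the matrix. Membrane type 1 metalloproteinase, the product of MMP14, sits at the cell surface and forms a complex with TIMP2 that captures and activates the proenzyme of MMP2, so that TIMP2 is both an inhibitor and a docking partner. In oral carcinoma the family is best known for its part in invasion, and TGF-β1 is known to act on many of its genes.

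Library totals ran from 12544690 to 20438727 counts. All 10 markers of squamous epithelium averaged at least 1 CPM (counts scaled to the library total and its TMM factor) in every group, with sums of 25000 to 32200 CPM at 48 h, 16700 to 26000 CPM at 72 h and 11200 to 20200 CPM in controls. The 72 h library of replicate 3 stood apart on the first principal component (84.4, against 20.7 and 25.5 for the other 72 h libraries), with 1.54% of its counts on the nuclear RNA MALAT1, against 0.437% and 0.409%. MALAT1 and the ribosomal protein genes also moved with treatment: MALAT1 took 0.409% to 1.54% of counts in the 6 TGF-β1 libraries and 0.247% to 0.351% in controls, and ribosomal protein genes took 1.011% to 2.005% in TGF-β1 libraries and 2.384% to 2.774% in controls. Their part in the member differences was not tested. In bulk RNA, more cells that express a gene and more RNA per cell cannot be told apart.

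Gene starts are shown for MMP14, TIMP1 and TIMP3, which rose, for MMP7, which was not tested, and for MMP10, which did not pass. The source of start regions held none for MMP1, MMP2, MMP9, MMP13 and TIMP2, so MMP2 and TIMP2, which also rose, are missing here. The estimates of MMP10 were upward as well, so the regions shown do not separate genes that rose from genes that did not. Start regions from RefSeq (250 bases before to 50 after the start, build GRCh38.p14) are given for MMP7, MMP10, MMP14, TIMP1 and TIMP3, on chr11:102530698-102530997 (minus strand), chr11:102780579-102780878 (minus), chr14:22836335-22836634 (plus), chrX:47582186-47582485 (plus) and chr22:32801455-32801754 (plus). They are given 5′ to 3′ on the gene's strand, with capitals at every match to the AP-1 element TGANTCA, the PEA3 or ETS element AGGAAG, the GC box GGGCGG and the TATA box TATAAA, searched on both strands.
MMP7: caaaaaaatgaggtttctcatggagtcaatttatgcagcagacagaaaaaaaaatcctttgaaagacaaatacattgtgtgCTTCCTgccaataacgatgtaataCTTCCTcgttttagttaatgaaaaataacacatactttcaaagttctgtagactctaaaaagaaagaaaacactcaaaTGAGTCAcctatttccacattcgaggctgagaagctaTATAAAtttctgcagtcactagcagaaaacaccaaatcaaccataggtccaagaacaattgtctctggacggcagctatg
MMP10: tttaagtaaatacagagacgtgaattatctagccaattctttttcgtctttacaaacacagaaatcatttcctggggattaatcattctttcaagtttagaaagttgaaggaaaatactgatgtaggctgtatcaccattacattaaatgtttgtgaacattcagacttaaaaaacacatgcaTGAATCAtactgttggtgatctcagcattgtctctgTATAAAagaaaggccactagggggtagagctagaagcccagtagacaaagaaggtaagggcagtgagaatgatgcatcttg
MMP14: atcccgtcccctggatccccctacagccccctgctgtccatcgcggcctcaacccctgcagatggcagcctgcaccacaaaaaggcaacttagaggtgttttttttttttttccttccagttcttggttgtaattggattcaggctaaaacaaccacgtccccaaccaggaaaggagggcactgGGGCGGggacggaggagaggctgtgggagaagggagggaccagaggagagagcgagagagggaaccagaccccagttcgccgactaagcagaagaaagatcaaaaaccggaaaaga
TIMP1: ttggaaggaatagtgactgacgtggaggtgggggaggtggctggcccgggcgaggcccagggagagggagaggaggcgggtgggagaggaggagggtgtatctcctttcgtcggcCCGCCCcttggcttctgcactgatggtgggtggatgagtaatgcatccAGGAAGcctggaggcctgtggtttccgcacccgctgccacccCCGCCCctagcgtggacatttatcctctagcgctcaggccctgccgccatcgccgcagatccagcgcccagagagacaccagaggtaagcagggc
TIMP3: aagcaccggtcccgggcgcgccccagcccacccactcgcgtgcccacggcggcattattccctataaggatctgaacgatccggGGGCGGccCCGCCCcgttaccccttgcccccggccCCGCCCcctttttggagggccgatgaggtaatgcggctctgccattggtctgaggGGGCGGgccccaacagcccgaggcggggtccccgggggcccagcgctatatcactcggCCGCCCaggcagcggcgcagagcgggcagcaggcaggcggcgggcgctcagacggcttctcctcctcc
MMP7 and MMP10 each held an AP-1 element at positions -67 to -61 from the start, TGAGTCA in MMP7 and TGAATCA in MMP10, and a TATA box at -30 to -25 in MMP7 and -31 to -26 in MMP10. MMP14 held 1 GC box, at -66 to -61, TIMP1 held 2 GC boxes and 1 PEA3 element, and TIMP3 held 5 GC boxes. None of the matches overlapped, and TIMP1, TIMP3 and MMP14 held no match to the AP-1 or TATA letters. The search allowed no mismatch, so a run that differs by 1 letter, such as tgagtaa in TIMP1, was not marked. Of 35116 human start regions of this length, 7.71% held the AP-1 letters, 33.6% the PEA3 letters, 45.0% the GC box and 11.5% the TATA letters. A match is a run of letters, and none was tested as a binding site.

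Per kilobase of exon, MMP14 was the most abundant of the 10 transcripts in every group, at 43.0 ± 3.66 CPM per kb in controls, 149 ± 23.5 at 48 h and 199 ± 59.9 at 72 h (SD, n = 3 each). Its lowest library lay above the highest library of the next member, MMP13, in each group. In controls MMP13, TIMP1 and MMP1 followed, with 17.4 ± 3.39, 13.2 ± 2.54 and 9.23 ± 7.33 CPM per kb, and their ranges overlapped. MMP9, MMP2, TIMP3, MMP10 and TIMP2 averaged 1.05 to 2.06 CPM per kb in controls, and each overlapped its neighbour in that order. At 72 h TIMP1 (35.8 ± 7.46 CPM per kb) was apart from MMP1 (17.6 ± 7.80) and still overlapped MMP13 (41.8 ± 49.1).

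**Figure D1:**
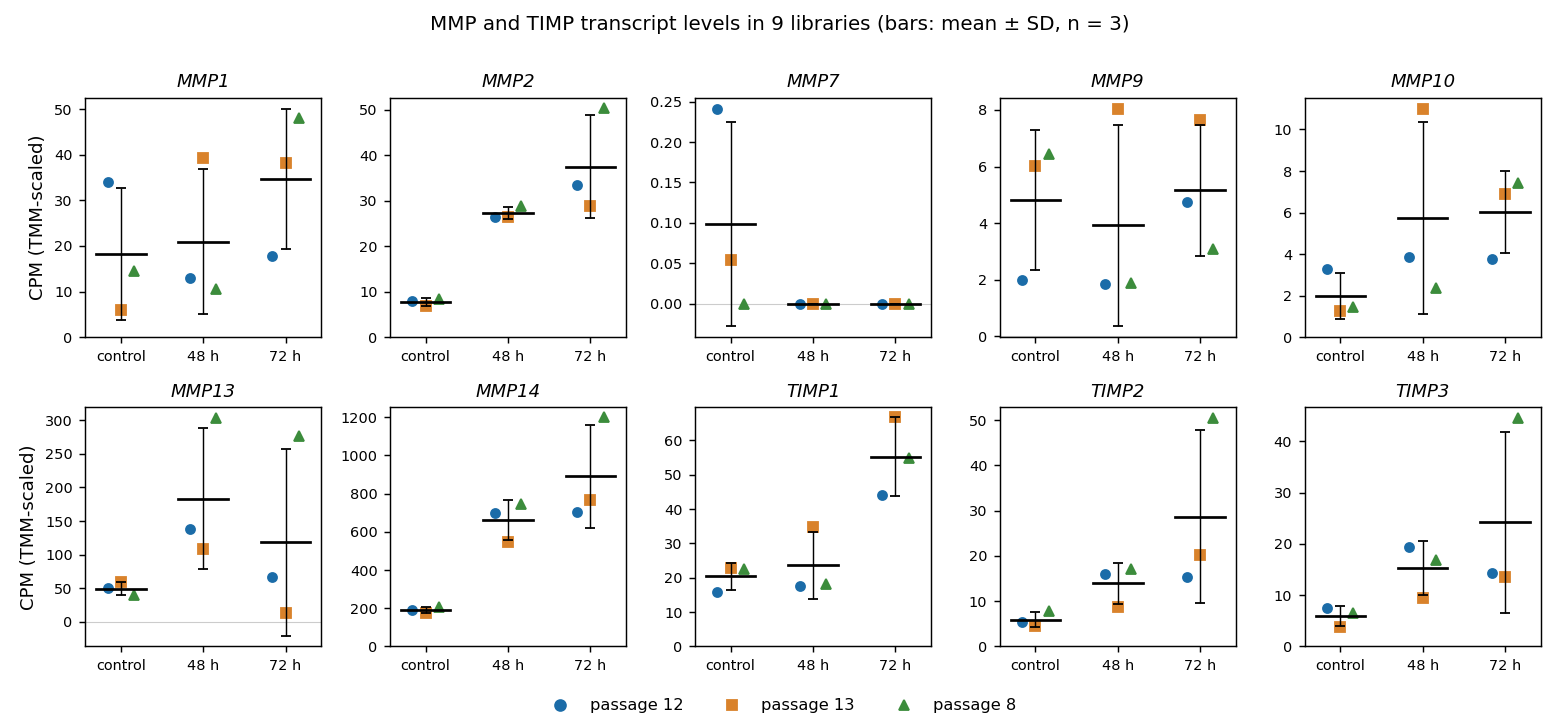
Level of each of the 10 members in CPM (vertical axes, linear, scaled separately) in controls and after 48 h and 72 h of TGF-β1. Points are libraries, coloured by passage, and bars give the mean ± SD of 3 libraries; the TGF-β1 points of MMP2 and MMP14 all lie above the control points, while MMP1 and MMP9 overlap between all groups.

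After 48 h of TGF-β1, the genes of the cell surface collagenase MMP14 and of the gelatinase MMP2 were 3.45-fold and 3.54-fold higher than in controls, and they were the 2 of 9 tested members that passed an adjusted p of 0.05. After 72 h, MMP2 and MMP14 were 4.88-fold and 4.63-fold higher, and all 3 inhibitor genes passed as well, which made 5 of 9 members. At 48 h TIMP2 and TIMP3 were already 2.38-fold and 2.59-fold higher without passing (adjusted p = 0.0722 and 0.0748). TIMP1 was 1.16-fold higher at 48 h (adjusted p = 0.607). None of the 3 passed between 72 h and 48 h. No member fell at either time. Tests were edgeR quasi-likelihood F tests with Benjamini-Hochberg adjustment over all 15440 genes. Of all tested genes, 14.9% were called higher and 16% lower at 48 h, and 20.4% higher and 19.4% lower at 72 h. In 5 of 9 members at 48 h and 6 of 9 at 72 h the TGF-β1 libraries all lay above the controls, where 25.6% and 27.3% of all tested genes did so; in 0 members, beside 28.1% and 27.7% of all genes, did they all lie below. The median log2 fold change of the 9 tested members was 1.37 at 48 h and 1.60 at 72 h, beside 0.00 and 0.03 over all tested genes.

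MMP14 (ENSG00000157227, chromosome 14, 22836557 to 22849027, plus strand, GRCh38) was counted at 192, 176 and 209 CPM in controls 1, 2 and 3, at 697, 545 and 747 CPM at 48 h, and at 705, 768 and 1200 CPM at 72 h. Every TGF-β1 library exceeded every control, and the 48 h and 72 h libraries overlapped. The log2 fold change was 1.79 ± 0.22 at 48 h (approximate SE, adjusted p = 0.000994) and 2.21 ± 0.23 at 72 h (adjusted p = 0.000322). MMP2 (ENSG00000087245, chromosome 16, 55389700 to 55506691, plus strand), whose product cuts denatured collagen and the type IV collagen of basement membranes, had 7.96, 6.77 and 8.38 CPM in controls, 26.5, 26.5 and 28.8 CPM at 48 h and 33.4, 28.8 and 50.4 CPM at 72 h. Every TGF-β1 library exceeded every control, with a coefficient of variation of 4.75% at 48 h, 30.2% at 72 h and 10.9% in controls. The log2 fold change was 1.83 ± 0.21 at 48 h (adjusted p = 0.000702) and 2.29 ± 0.21 at 72 h (adjusted p = 0.000223). Without the 72 h library of replicate 3 the values at 72 h were 2.02 ± 0.15 for MMP2 and 1.94 ± 0.16 for MMP14, and both kept their calls without any 1 library.

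The levels of MMP2 and MMP14 kept a near-constant ratio. Per kilobase, MMP2 stood at 0.0344, 0.0440 and 0.0349 of MMP14 at 48 h, 0.0429, 0.0340 and 0.0381 at 72 h, and 0.0375, 0.0348 and 0.0364 in controls. The ratio thus spanned 0.0340 to 0.0440 over the 9 libraries while both levels rose. Of 10624 other genes with at least 5 CPM on average, MMP14 ranked 4 in likeness to MMP2 (Pearson r = 0.992 of log2 CPM over 9 libraries), and PIP4K2B (0.996) and ATP6AP1 (0.994) ranked highest. The genes most like MMP14 were PBXIP1 (0.998), FBXO2 (0.997) and DGCR2 (0.995). The gene most like TIMP1 was SKIV2L (0.969), that for TIMP2 was TRIM41 (0.985) and that for TIMP3 was SPON2 (0.991). For MMP10 it was ADCK5 (0.958), for MMP13 ABCC2 (0.960), for MMP9 TMEM14C (0.897) and for MMP1 ACOT11 (0.896). These are descriptions over 9 libraries that fall into controls and TGF-β1 libraries and share their depth and passage.

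**Figure D2:**
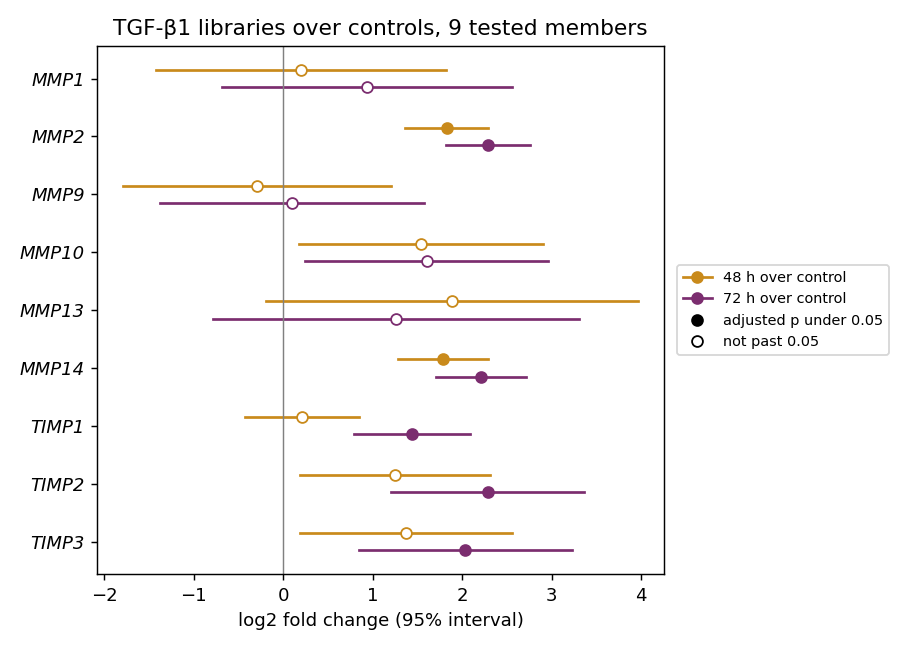
Log2 fold changes of the 9 tested members at 48 h and 72 h over controls, with 95% intervals (lines) from the quasi-likelihood fit; filled points passed an adjusted p of 0.05. MMP2 and MMP14 are filled at both times, and TIMP1, TIMP2 and TIMP3 at 72 h. The intervals of MMP1, MMP9 and MMP13 include 0 at both times, as does that of TIMP1 at 48 h. Intervals are not adjusted for the number of genes, so those of MMP10, and of TIMP2 and TIMP3 at 48 h, lie above 0 with open points.

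The inhibitor genes passed the threshold at 72 h and not at 48 h. TIMP1 (ENSG00000102265, chromosome X, 47582313 to 47586789, plus strand), a broad inhibitor of secreted metalloproteinases, had 15.9, 22.8 and 22.5 CPM in controls, 17.5, 34.9 and 18.3 CPM at 48 h and 44.0, 66.9 and 54.8 CPM at 72 h. The 48 h libraries overlapped the controls, and the 72 h libraries lay above both other groups. Its log2 fold change was 0.21 at 48 h (95% interval -0.43 to 0.85, adjusted p = 0.607) and 1.44 ± 0.29 at 72 h (adjusted p = 0.00456). Between 72 h and 48 h it was 1.23 ± 0.29, higher in 3 of 3 passages, with an unadjusted p of 0.00175 and an adjusted p of 0.466 in edgeR. DESeq2 called that difference (adjusted p = 0.0421), and edgeR with no filter on low counts gave 1.36e-07. The fit with no filter called 211 genes between the times where the main fit called 0, so its value is to be read beside that count. The range over its alternatives was 1.36e-07 to 0.861.

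TIMP2 (ENSG00000035862, chromosome 17, 78852977 to 78925387, minus strand), the partner of MMP14 in MMP2 activation, had 5.43, 4.56 and 7.74 CPM in controls, 16.1, 8.82 and 17.1 CPM at 48 h and 15.4, 20.2 and 50.5 CPM at 72 h. All TGF-β1 libraries lay above the controls, and the 72 h library of replicate 3 was the highest. The log2 fold change was 2.29 ± 0.48 at 72 h (adjusted p = 0.00607), or 1.60 ± 0.31 without that library (adjusted p = 0.0033). At 48 h it was 1.25 ± 0.47 (adjusted p = 0.0722), and with the passage as a pairing 1.26 ± 0.30 (adjusted p = 0.0135). Adjusted p-values at 48 h ran from 0.0031 to 0.26 over its alternatives.

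TIMP3 (ENSG00000100234, chromosome 22, 32801701 to 32863043, plus strand), the matrix-bound inhibitor that also blocks ADAM17, had 7.42, 3.76 and 6.59 CPM in controls, 19.5, 9.44 and 16.9 CPM at 48 h and 14.4, 13.6 and 44.6 CPM at 72 h. Its TGF-β1 libraries also all lay above the controls. The log2 fold change at 72 h was 2.03 ± 0.52 (adjusted p = 0.0151), and 1.25 ± 0.33 without the 72 h library of replicate 3 (adjusted p = 0.0167). The 72 h call was lost without control replicate 2 (adjusted p = 0.0594) and without all of passage 8 (0.0544), within a range of 0.00012 to 0.0594. At 48 h the log2 fold change was 1.37 ± 0.52 (adjusted p = 0.0748), and 1.37 ± 0.35 with the pairing (adjusted p = 0.0207; range over alternatives 0.0105 to 0.231).

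The collagenase and stromelysin genes of chromosome 11 varied from passage to passage. MMP13 (ENSG00000137745, chromosome 11, 102942995 to 102955734, minus strand), collagenase 3, had 49.9, 58.7 and 39.5 CPM in controls, 138, 108 and 303 CPM at 48 h and 67.2, 12.4 and 276 CPM at 72 h. The 48 h libraries all exceeded the controls, whereas at 72 h passage 13 lay below every control and passage 8 far above. The highest 72 h library held 22.3 times the level of the lowest, against 1.49 times among controls. The log2 fold change was 1.89 at 48 h (95% interval -0.19 to 3.97, adjusted p = 0.148) and 1.26 at 72 h (-0.78 to 3.31, adjusted p = 0.288). Without the 72 h library of replicate 3 the 72 h value was -0.31 (adjusted p = 0.769). At 48 h it passed in a fit of only the 2 groups compared (adjusted p = 0.0103), within a range of 0.0103 to 0.405.

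MMP1 (ENSG00000196611, chromosome 11, 102789920 to 102798160, minus strand), the interstitial collagenase that cuts fibrillar collagen, had 34.1, 5.96 and 14.5 CPM in controls, 12.9, 39.2 and 10.6 CPM at 48 h and 17.9, 38.1 and 48.1 CPM at 72 h. In passage 12 it was lower than in its control at both times (log2 differences -1.40 and -0.92), in passage 13 higher at both (2.69 and 2.65), and in passage 8 lower at 48 h and higher at 72 h (-0.45 and 1.72). The groups overlapped throughout, with log2 fold changes of 0.20 at 48 h (95% interval -1.42 to 1.82, adjusted p = 0.851) and 0.93 at 72 h (-0.69 to 2.55, adjusted p = 0.321). MMP10 (ENSG00000166670, chromosome 11, 102770503 to 102780628, minus strand), stromelysin 2, which cuts proteoglycans and activates other proenzymes, had 3.26, 1.24 and 1.43 CPM in controls, 3.84, 11 and 2.36 CPM at 48 h and 3.78, 6.89 and 7.41 CPM at 72 h. It was above the control of the same passage in 3 of 3 passages at both times, by 0.23, 3.04 and 0.68 at 48 h and 0.21, 2.37 and 2.28 at 72 h for passages 12, 13 and 8 (log2). Passage 13 at 48 h was thus the highest of the 48 h libraries for both genes.

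**Figure D3:**
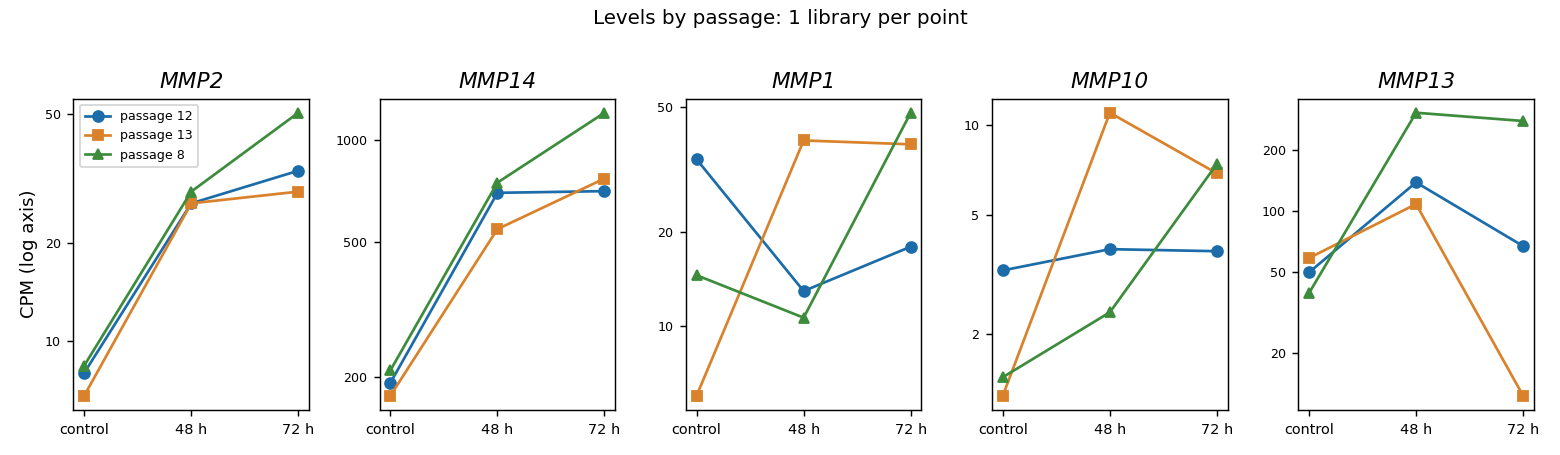
CPM of MMP2, MMP14, MMP1, MMP10 and MMP13 in controls, at 48 h and at 72 h (log vertical axes with separate ranges), with a line for each passage and 1 library per point. The lines of MMP2 and MMP14 rise together, whereas those of MMP1 cross and MMP13 at 72 h spreads from 12.4 to 276 CPM.

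The log2 fold change of MMP10 was 1.54 ± 0.60 at 48 h (adjusted p = 0.0802, range over alternatives 0.000132 to 0.615) and 1.60 ± 0.60 at 72 h (adjusted p = 0.0602, range 5.1e-05 to 0.196). DESeq2 called it at both times (adjusted p = 0.0226 and 0.0159), as did edgeR with no filter on low counts. It also passed without the 48 h library of replicate 3 at 48 h (0.0429), without control replicate 1 at 72 h (0.0449) and in the fit of only the 2 groups at 72 h (0.0272). Without the 48 h library of replicate 2, its log2 fold change at 48 h was 0.66 ± 0.48 (adjusted p = 0.336). WTAPP1, which overlaps MMP10 and MMP1 on the other strand, held 30, 23 and 11 counts over the libraries at 48 h, at 72 h and in controls, where MMP10 held 286, 308 and 97. MMP9 (ENSG00000100985, chromosome 20, 46008908 to 46016561, plus strand), the other gelatinase, had 1.99, 6.01 and 6.45 CPM in controls, 1.85, 8.03 and 1.87 CPM at 48 h and 4.74, 7.63 and 3.09 CPM at 72 h. Its groups overlapped, with log2 fold changes of -0.29 at 48 h (95% interval -1.79 to 1.20, adjusted p = 0.767) and 0.10 at 72 h (-1.38 to 1.58, adjusted p = 0.914). MMP7 (ENSG00000137673, chromosome 11, 102520508 to 102530753, minus strand), matrilysin, had 0 counts in all 6 TGF-β1 libraries, and 4, 1 and 0 counts in controls 1, 2 and 3. A count of 0 allows up to 3 counts, or 0.149 to 0.244 CPM, in each TGF-β1 library (counting error only). For the 3 libraries of a group together it allows 0.062 CPM at 48 h and 0.058 CPM at 72 h, against a control mean of 0.0983 CPM. As 4 of the control counts came from 1 library and MMP7 was not tested, no difference is claimed.

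No member passed between 72 h and 48 h, where edgeR called 0 of 15440 genes (0% of those tested), with 1380 genes at an unadjusted p under 0.05 and 41 called by DESeq2. At an unadjusted p under 0.05, 3 of 9 members were higher at 72 h, beside 8.94% of all genes in either direction. They were TIMP1, MMP2 (log2 fold change 0.46 ± 0.20, adjusted p = 0.545) and TIMP2 (1.03 ± 0.45, adjusted p = 0.557). The 72 h libraries lay wholly above the 48 h libraries for MMP2 and TIMP1, where 7.07% of all genes did so, and wholly below for 0 members, beside 5.17% of all genes.

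Summed per kilobase, the 7 metalloproteinase transcripts reached 220, 195 and 288 CPM per kb at 48 h and 202, 209 and 406 at 72 h, against 82.4, 67.8 and 73.3 in controls. The 3 inhibitor transcripts summed to 18.5, 26.3 and 18.6 CPM per kb at 48 h and 34.4, 50 and 54.2 at 72 h, against 12.9, 16.4 and 17.4 in controls. The ratio of the sums was 11.9, 7.42 and 15.5 at 48 h, above all controls (6.40, 4.14 and 4.21), and 5.86, 4.18 and 7.48 at 72 h, which overlapped them. MMP14 supplied 52.2% to 82.4% of the metalloproteinase sum and TIMP1 61.5% to 90.1% of the inhibitor sum across the 9 libraries. These sums describe transcripts and not active enzyme, and no test was made on them.

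**Figure D4:**
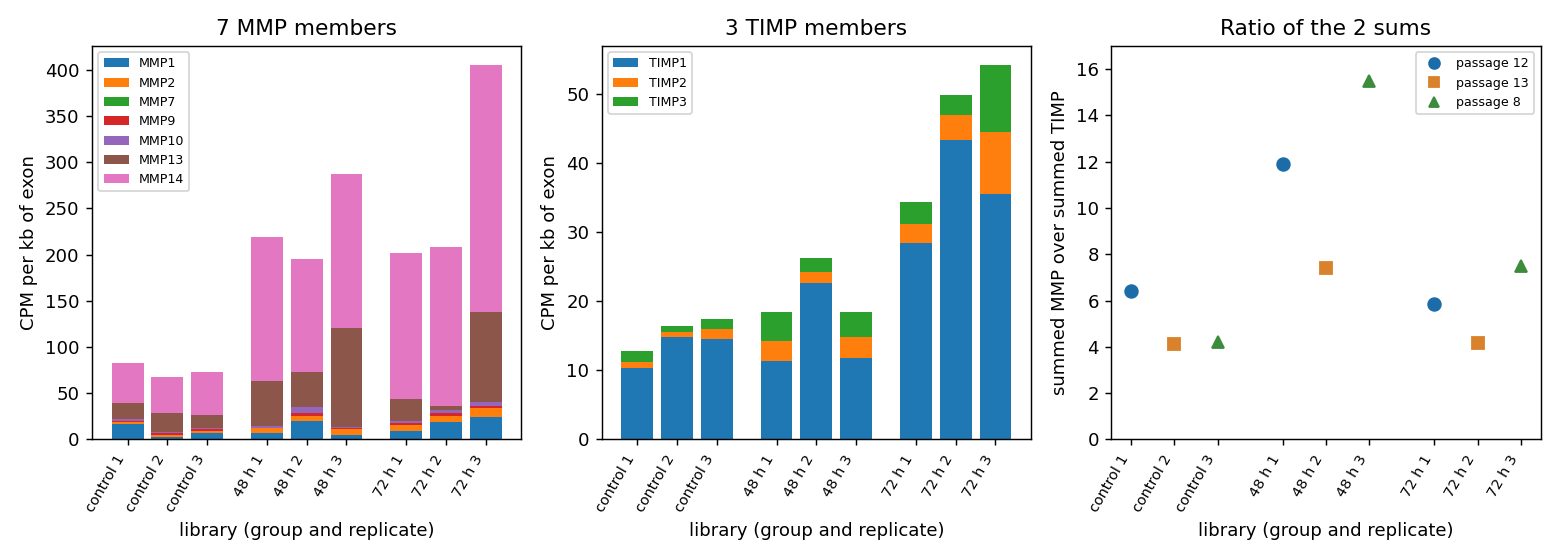
Stacked levels in CPM per kb of exon of the 7 metalloproteinase transcripts (left) and the 3 TIMP transcripts (middle) in each library, and the ratio of both sums (right, coloured by passage). The ratio lies between 7.42 and 15.5 at 48 h and between 4.14 and 7.48 in the 72 h and control libraries.

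Further genes of the family rose in part. Of 16 further metalloproteinase genes 6 had enough counts, of which 2 rose at 48 h and 5 at 72 h, and 0 fell (median log2 fold change 1.16 and 1.56), beside 14.9% of all tested genes called higher and 16% lower at 48 h and 20.4% and 19.4% at 72 h. MMP17, a glycolipid-anchored enzyme of the cell surface, averaged 8.56 ± 1.88 CPM at 48 h and 15.2 ± 1.83 at 72 h, against 2.11 ± 0.31 in controls (SD, n = 3 each), with log2 fold changes of 2.02 ± 0.22 and 2.84 ± 0.22 (adjusted p = 0.000628 and 0.000147). MMP16, a membrane-spanning relative of MMP14, rose by 0.96 ± 0.28 and 1.13 ± 0.28 (adjusted p = 0.0271 and 0.0107), and its 48 h call was lost without 48 h replicate 2 or 3 or control 2 or 3 (0.0723 to 0.0949). MMP28, epilysin of keratinocytes, was at 34.6 to 272 CPM at 72 h, against 7.68 to 21.4 CPM in controls (log2 fold change 2.83 ± 0.81, adjusted p = 0.0245). Without the 72 h library of replicate 3 the log2 fold change of MMP28 was 1.27 (adjusted p = 0.0395), and it did not pass when any 1 control was left out (0.0579 to 0.0829). MMP11, stromelysin 3, stayed near 1 CPM, with 1.99 ± 0.56 at 72 h (adjusted p = 0.0189), a call lost without 72 h replicate 2 or control 2 or 3 (0.0625 to 0.0797). The list had 1 call at 48 h without 48 h replicate 2 or 3 or control 2 or 3, and 3 at 72 h without any 1 control.

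Genes for the activation and docking of these enzymes rose in part. Of 26 listed, 22 were tested, with 7 higher and 0 lower at 48 h and 9 higher and 1 lower at 72 h (median 0.49 and 0.62). The shares over all tested genes were 14.9% higher and 16% lower at 48 h, and 20.4% and 19.4% at 72 h. SERPINE2, a secreted inhibitor of plasminogen activators and thrombin, rose by 2.60 ± 0.24 at 48 h and 3.49 ± 0.25 at 72 h (adjusted p = 0.000444 and 0.000144). PLAU, the urokinase that makes plasmin, rose by 1.44 ± 0.28 and 1.46 ± 0.28 (adjusted p = 0.00525 and 0.00355). ITGAV, the alpha v integrin subunit that can dock MMP2, rose by 2.21 ± 0.61 and 2.19 ± 0.61 (adjusted p = 0.0253 and 0.0209). Its 72 h libraries ran from 968 to 3980 CPM, against 416 to 471 CPM in controls, and without the 72 h library of replicate 3 its log2 fold change was 1.22 (adjusted p = 0.0381). ITGAV did not pass at either time when any 1 control was left out, nor at 48 h without 48 h replicate 1 or 3 (adjusted p = 0.0543 to 0.0865). The list had 4 rises at 48 h without control 1 and 5 at 72 h without control 1 or 2, and the fall at 72 h was lost without 72 h replicate 1 or 3 or control 1 or 3.

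Of 17 transcription factors known to act on metalloproteinase promoters, all tested, 2 were higher and 4 lower at 48 h, and 3 higher and 6 lower at 72 h (median -0.32 and -0.48). Among all tested genes 14.9% were called higher and 16% lower at 48 h, and 20.4% and 19.4% at 72 h, so the counts of rises were near those shares. RUNX2, a factor that drives MMP13 in bone, fell to 5.11 CPM at 48 h and 3.74 CPM at 72 h, against 36.0 CPM in controls (log2 fold change -2.80 ± 0.29 and -3.26 ± 0.30, adjusted p = 0.000558 and 0.000215). The AP-1 subunit genes JUNB and JUND rose by 1.48 ± 0.18 and 1.07 ± 0.22 at 48 h and by 1.73 ± 0.18 and 1.36 ± 0.22 at 72 h (adjusted p = 0.000914, 0.00662, 0.000335 and 0.00168). FOSB, another AP-1 subunit gene, fell by 2.07 ± 0.40 and 1.74 ± 0.39 (adjusted p = 0.00594 and 0.00817).

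MMP2, MMP14 and the TIMPs are also typical of fibroblasts, so the fibroblast markers were read beside them. Their 8 genes summed to 8.58 to 38.9 CPM at 48 h and 18.6 to 44.2 CPM at 72 h, against 3.87 to 5.91 CPM in controls, and 2 of 8 averaged at least 1 CPM at 48 h and at 72 h, against 1 in controls. FAP, a surface protease that is itself known in other cells than fibroblasts, accounted for 18.0 CPM at 48 h and 24.0 CPM at 72 h, against 4.10 CPM in controls (log2 fold change 2.13 ± 0.47 and 2.55 ± 0.47, adjusted p = 0.01 and 0.00359). COL1A2, a chain of type I collagen, averaged 6.97, 8.36 and 0.532 CPM at 48 h, at 72 h and in controls, and did not pass (adjusted p = 0.0911 and 0.0621; with the pairing 0.00643 and 0.003). Over the 3 libraries of a group, PDGFRA, LUM, DCN and THY1 had 0 to 5 counts each. PDGFRB had 4 counts at 48 h and 17 at 72 h, against 1 in controls, and COL3A1 had 0 and 10, against 1 in controls. Across the 72 h libraries PDGFRB ran from 0 to 0.803 CPM and COL3A1 from 0 to 0.618 CPM, so 1 library supplied most of these 72 h counts. Endothelial markers summed to 0.184 to 0.815 CPM at 48 h and 0.399 to 2.66 CPM at 72 h, against 0.121 to 0.215 CPM in controls, with PECAM1 at 8, 37 and 3 counts and VWF at 7, 19 and 3 counts at 48 h, at 72 h and in controls. Across the 72 h libraries PECAM1 ran from 0.057 to 1.73 CPM and VWF from 0.113 to 0.865 CPM, so 1 library held most of their 72 h counts. None of the 6 endothelial markers passed the filter on low counts, and at 72 h 1 was called higher by DESeq2 and 2 by edgeR with no filter. These calls are to be read beside up to 6465 genes called in either direction at 72 h over the alternatives. Leukocyte markers summed to 1.60 to 1.87 CPM at 48 h and 1.03 to 2.66 CPM at 72 h, against 1.45 to 2.72 CPM in controls. Of 8, 3 were tested, with 0 called at 48 h and 1 lower at 72 h, beside 19.4% of all tested genes. It was ITGAM, at 0.295 CPM against 0.979 CPM in controls (log2 fold change -1.71, adjusted p = 0.0216 in edgeR). The list had 0 falls without 72 h replicate 1 or 2 or control 2 or 3. CSF1R did not pass at 72 h (1.17, adjusted p = 0.0902). What part such cells or genes have in the member levels was not tested.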

How the data were processed

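The authors deposited a raw read count per Ensembl gene for each of 9 libraries. Tools named in the submitters' processing notes are STAR 2.5.2a, featureCounts 1.5.0-p1, FastQC 0.11.5 and bcl2fastq 2.17.1.14, with build hg38. The sources used here do not give the annotation release, the strand setting or how multiply aligned reads were counted. Genes that overlap a member held at most 30 counts each per group.

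Symbols, coordinates and exon lengths came from GENCODE 29, which held 57895 of the 58233 identifiers. Counts were tested with edgeR 4.0.16 under R 4.3.3 (TMM, filterByExpr, 1 model of group over 9 libraries, 6 residual df, robust glmQLFTest, Benjamini-Hochberg over all tested genes, threshold 0.05). Approximate SEs are |log2 fold change| divided by √F. Within-passage differences and likeness used log2 CPM with a prior count of 2. CPM per kb divides by the union of a gene's exons, not by the isoform expressed. Likeness took the 3 genes of highest r (for 7 members the first is printed) among tested genes averaging 5 CPM. Of the other lists, up to 4 genes were named, ranked by mean absolute change, with genes called at both times before those called at 1; some genes that the rules would name are not reported here. The members and lists were chosen with earlier results of these data known. The test code was run on counts simulated with independent libraries and few changed genes, unlike these data. That run checked the code and does not give the error rates in these data.

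Within each group, counts differed between replicates beyond sampling noise (chi-square per degree of freedom 8.99 to 159). Libraries of 1 number have the same passage in the labels, and an alternative fit had that number as a block. Their deviations from group means correlated at 0.08 to 0.12 (control and 48 h) and 0.04 to 0.11 (control and 72 h). For these comparisons the pairing thus rests on the labels. Between 48 h and 72 h the correlations were -0.03, 0.49 and 0.49 for replicates 1, 2 and 3. Replicates 2 and 3 thus shared deviations that the main fit between the times left out. Other alternatives were DESeq2 1.42.0, DESeq2 size factors or upper-quartile factors in edgeR, no filter, a filter of 1 CPM in 3 libraries, a fit of only the 2 groups compared, and omission of each library. Omission of each passage was added after seeing the data.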

Additional observations from a re-analysis of the deposited data

How the results depend on the processing

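Of 432 member values under the alternatives, 412 kept their side of the threshold, 2 lost a call and 18 gained one, and no called value changed sign. At 48 h the count of members called higher was 5 with DESeq2, 4 with no filter on low counts, 4 with the replicate block (pairing by passage), 5 in a fit of only the 2 groups compared, and 2 to 3 without any 1 library or passage. At 72 h it was 4 to 6 under every alternative. Between 72 h and 48 h DESeq2 and the fit with no filter each called 1 member, TIMP1, and the replicate block 0. With the block, TIMP2 and TIMP3 passed at 48 h, and no other member's call changed. Without 1 passage, the genes named from the other lists lost further calls. Over all genes, 2631 to 3920 were called at 48 h without 1 library, against 4779 with all, and 765 to 4599 without 1 passage. At 72 h 4111 to 6004 were called without 1 library and 2602 to 4906 without 1 passage, against 6152. The highest count over all alternatives was 6161 genes at 48 h and 6465 at 72 h, so some settings called more genes of every kind. Gains in member calls are to be read beside these counts. Between the times 41 were called by DESeq2 and 211 with no filter, and 0 without any 1 library or passage. The cause of these differences was not tested; omissions leave fewer samples. With 3 libraries a group, the intervals of MMP1, MMP9, MMP10 and MMP13 stayed wide, and depth limited MMP7.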

Other observations

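Of 25 listed ADAM and ADAMTS proteases, relatives of the metalloproteinases that shed surface proteins or cut proteoglycans, 15 were tested, with 3 higher and 2 lower at 48 h and 4 higher and 2 lower at 72 h (median log2 fold change 0.32 and 0.29), beside 14.9% of all tested genes higher and 16% lower at 48 h and 20.4% and 19.4% at 72 h. ADAM19, a sheddase, averaged 44.6 CPM at 48 h and 62.6 CPM at 72 h, against 19.7 CPM in controls (log2 fold change 1.17 ± 0.35 and 1.66 ± 0.35, adjusted p = 0.0321 and 0.00631 in edgeR). ADAMTS13, the protease of von Willebrand factor, rose by 1.28 ± 0.35 and 2.38 ± 0.34 (adjusted p = 0.0211 and 0.00101), with 0.753 CPM on average in controls, and lost its 48 h call without 48 h replicate 1 or 2 or control 1 or 3 (0.0553 to 0.0749). ADAMTS16 and ADAMTS17 fell by 1.98 ± 0.49 and 0.94 ± 0.23 at 48 h and by 1.61 ± 0.46 and 0.66 ± 0.22 at 72 h (adjusted p = 0.0143, 0.0129, 0.0208 and 0.0387). ADAMTS16 lost its 48 h call without 48 h replicate 1 or 2 or control 2 and its 72 h call without 72 h replicate 2 or 3 or control 2 (0.0515 to 0.106). ADAMTS17 lost them without control 2 at 48 h, and without 72 h replicate 2 or 3 or any 1 control at 72 h (0.0529 to 0.159). ADAM19 lost its 48 h call without 48 h replicate 2 or 3 or control 1 or 3 (0.0781 to 0.1). The list had 0 or 1 rise at 48 h without any 1 of the 48 h libraries or control 1 or 3, and its 2 falls became 1 without 48 h replicate 1 or 2 and 0 without control 2. At 72 h the falls were 3 without 72 h replicate 1, 0 without 72 h replicate 2 or 3 or control 2, and 1 without control 1 or 3.

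Among 12 other genes listed for inhibitors and related regulators, 7 were tested, with 1 higher and 1 lower at 48 h and 3 higher and 1 lower at 72 h (median 0.47 and 0.88). The shares over all tested genes were 14.9% higher and 16% lower at 48 h, and 20.4% and 19.4% at 72 h. The counts at 48 h were thus near those shares. SPOCK2, a testican proteoglycan, stayed low at 0.988 CPM at 48 h and 1.25 CPM at 72 h, against 0.236 CPM in controls (log2 fold change 2.08 ± 0.45 and 2.42 ± 0.44, adjusted p = 0.00828 and 0.00283). CST3, cystatin C, an inhibitor of cysteine proteases, averaged 115 CPM at 72 h, against 62.5 CPM in controls (0.88 ± 0.18, adjusted p = 0.00489). PCOLCE2, an enhancer of procollagen processing, fell by 1.43 ± 0.35 and 1.12 ± 0.35 (adjusted p = 0.0147 and 0.0279). Its 48 h call was lost without 48 h replicate 1 (0.0585), and its 72 h call without 72 h replicate 1 or 2 or any 1 control (0.0574 to 0.0808). PCOLCE, its relative, rose by 1.18 ± 0.34 at 72 h (adjusted p = 0.0224), lost without 72 h replicate 2 or control 1 or 3 (0.0724 to 0.0816).

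Per passage, the ratio of MMP10 to MMP1 per kilobase was 0.334, 0.315 and 0.250 at 48 h and 0.236, 0.203 and 0.173 at 72 h, against 0.107, 0.232 and 0.111 in controls, so the 48 h values of this neighbouring gene pair all lay above the controls and the 72 h values overlapped them.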
